A study of Homo sapiens with 6 samples.

Results

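The transcripts of 10 genes of the BCL2 family were followed in quiescent hTERT RPE1 cells, a human retinal pigment epithelial line immortalised with telomerase. The genes are the anti-apoptotic BCL2, BCL2L1 and MCL1, the BH3-only BCL2L11, BMF, BBC3, PMAIP1 and BID, and the effectors BAX and BAK1. They were chosen by name, as the rows whose Ensembl ID carries 1 of these symbols, and all 10 were found among the 38900 rows of the table. Cells of both groups were held at 100% confluency for 5 days and then changed to fresh medium for 6 hours. The control group received 0.1% DMSO, the solvent, and the treated group 100 nM combretastatin A4 (CA4), an inhibitor of tubulin polymerisation that depolymerises microtubules. Each group has 3 polyA RNA sequencing libraries of this 1 line, and the labels do not say whether they came from separate cultures, so the p-values below measure the spread between these libraries, which may be technical.

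Proteins of the BCL2 family decide whether the outer membrane of the mitochondrion is opened, the step that releases cytochrome c and starts the caspases. BAX and BAK1 form the openings, BCL2, BCL2L1 (BCL-XL) and MCL1 hold them in check, and BH3-only proteins bind the protectors or the effectors through a short helix, the BH3 domain. The BH3-only proteins BCL2L11 (BIM) and BMF are also known for a link to the cytoskeleton, because each binds a dynein light chain, DYNLL1 in the case of BIM on microtubule motors and DYNLL2 in the case of BMF on myosin V. Much of the control of these proteins acts on the protein itself, which RNA libraries do not measure, and BCL2L1, MCL1, BCL2L11 and BID give several spliced forms that a count per gene adds together.

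The coding bases of the BH3 core are shown because this helix is what the 10 members share and the choice by name did not use it. The core was searched in the translated principal transcript of each gene in GENCODE 29 (build GRCh38) as leucine, any 3 residues, glycine or alanine, and aspartate. Each member held exactly 1 match, and the residue before the aspartate was glycine in 8 members and alanine in BMF and BBC3. The same pattern occurs in the longest coding sequence of 25.0% of 19529 genes, so a match is a description and does not by itself mark a BH3 domain. In the lines below the codons of the leucine, of the glycine or alanine and of the aspartate are in capitals, with 2 codons on either side in lower case, 5′ to 3′ on the strand of the gene.
BCL2 (chr18:63318355-63318384, minus strand): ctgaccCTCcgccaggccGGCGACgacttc
BCL2L1 (chr20:31721928-31721957, minus strand): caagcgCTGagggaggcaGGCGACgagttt
MCL1 (chr1:150578871-150578900, minus strand): gagaccTTAcgacgggttGGGGATggcgtg
BCL2L11 (chr2:111150097-111150126, plus strand): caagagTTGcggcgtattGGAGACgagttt
BMF (chr15:40104201-40104230, minus strand): cgaaagCTTcagtgcattGCAGACcagttc
BBC3 (chr19:47226585-47226614, minus strand): gcccagCTGcggcggatgGCGGACgacctc
PMAIP1 (chr18:59902667-59902696, plus strand): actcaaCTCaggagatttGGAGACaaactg
BID (chr22:17739421-17739450, minus strand): aggcacCTCgcccaggtcGGGGACagcatg
BAX (chr19:48955781-48955810, plus strand): gagtgtCTCaagcgcatcGGGGACgaactg
BAK1 (chr6:33575393-33575422, minus strand): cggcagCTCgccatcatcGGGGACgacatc

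A second motif is shown because the treatment acts on microtubules. Lysine, any residue, threonine, glutamine and threonine is a form of the sequence that dynein light chains bind, and it was found in 0.389% of the 19529 coding sequences. BMF is shown as an example and is not the only member that holds it. Capitals mark the codons of the 4 fixed residues.
BMF (chr15:40105865-40105891, minus strand): gaagacAAAgctACCCAGACTctcagc

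The values are normalized counts, reads that the authors divided by 1 scaling factor per library. The libraries held from 19524936 to 22538004 recovered reads, and the members' lowest value in any library was 32 reads, so all 10 passed the filter of a mean of at least 10 normalized counts. Replicate 1 stood apart in both groups. On principal component 1 over tested genes (34.4% of the variance) DMSO replicates 1, 2 and 3 lay at -10.9, -45.4 and -35.4 and CA4 replicates at 43.1, 17.2 and 31.3, and on component 2 (21.3%) replicate 1 lay at 30.2 in DMSO and 34.8 in CA4, with the other 4 libraries from -37.7 to 2.99. BIRC5, a gene of dividing cells, had 888, 447 and 440 normalized counts in replicates 1, 2 and 3 of DMSO and 594, 402 and 254 in those of CA4, highest in replicate 1 of both, and its part in the members' values was not tested. Of 14 retinal pigment epithelium markers, 9 passed that filter, among them OTX2, MITF and BEST1, while TTR and DCT were listed at 0 in all 6 libraries. OTX2 fell in CA4, from a mean of 533 ± 104 in DMSO to 244 ± 15.5 normalized counts in CA4 (SD, n = 3), a difference of -1.11 on the log2 scale (limma, SE 0.16 and adjusted p 0.0158). That call held in 2 of 6 fits with a library left out, and the part of this and the next marker lists in the members' values was not tested. MITF averaged 885 ± 239 normalized counts for DMSO and 457 ± 170 with CA4 (SD, n = 3) and did not pass (log2 difference -0.98, limma adjusted p = 0.100), and DESeq2 on the recovered reads called MITF lower and KRT18 higher. The summed level of the 14 ran from 24341 to 26786 in DMSO and from 27185 to 32369 in CA4, but KRT8 and KRT18 made up 92.1% to 97.1% of it. Without these keratins the sum ran from 1311 to 2003 in DMSO and from 816 to 1207 in CA4, so it was lower in all CA4 libraries. By their means above, OTX2 and MITF made up most of this sum in both groups. It therefore mainly repeats those genes and does not show a fall of the other markers. Of the leukocyte markers CD3E and ITGAM were listed at 0 in every library. PTPRC, below the filter, had 4, 3 and 3 reads in replicates 1, 2 and 3 of DMSO and 11, 4 and 5 in those of CA4, and in normalized counts its groups did not overlap. CD68, which other cells also express, had 717 to 921 normalized counts in DMSO and 499.7 to 709 in CA4. The 4 endothelial markers were all expressed, with a summed level of 1084 to 1575 in DMSO and of 1754, 1406 and 3414 in CA4 replicates 1, 2 and 3, and none passed the test. CA4 replicate 3 alone stood far above the controls. Of 5 neuronal and photoreceptor markers 4 passed the filter and none the test, with a summed level of 152 to 309 in DMSO and of 501, 278 and 195 in CA4 replicates 1, 2 and 3. As in any bulk RNA sample, fewer cells that carry a transcript and less of it per cell cannot be told apart.

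Of the 10 members, 1 fell in CA4, BMF, and none rose past the threshold of 0.05 (limma, p-values adjusted over 13928 genes). On the recovered reads both edgeR and DESeq2 also called BMF lower (edgeR adjusted p = 0.0400, DESeq2 adjusted p = 0.00246). No member was higher in edgeR, and 1 was in DESeq2, BCL2. Of all tested genes edgeR called 4.62% and DESeq2 11.6%. In limma 4.94% of them passed, 1.97% as lower (275 genes) and 2.97% as higher (413 genes). Scaling every library to the same total turned this split to 523 lower and 279 higher genes. At an unadjusted p under 0.05 there were 5 members, BMF, BAK1, BCL2, MCL1 and PMAIP1, against 23.0% of all genes. The CA4 libraries lay wholly above the DMSO libraries for BCL2, MCL1 and BAK1 and wholly below them for BMF, while 27.7% of all tested genes had groups that do not overlap. The members' median log2 fold change was 0.04, and that of all tested genes was -0.01. By role, the medians were 0.24 for the 3 anti-apoptotic genes, -0.21 for the 5 BH3-only genes and 0.20 for the 2 effectors.

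**Figure D1:**
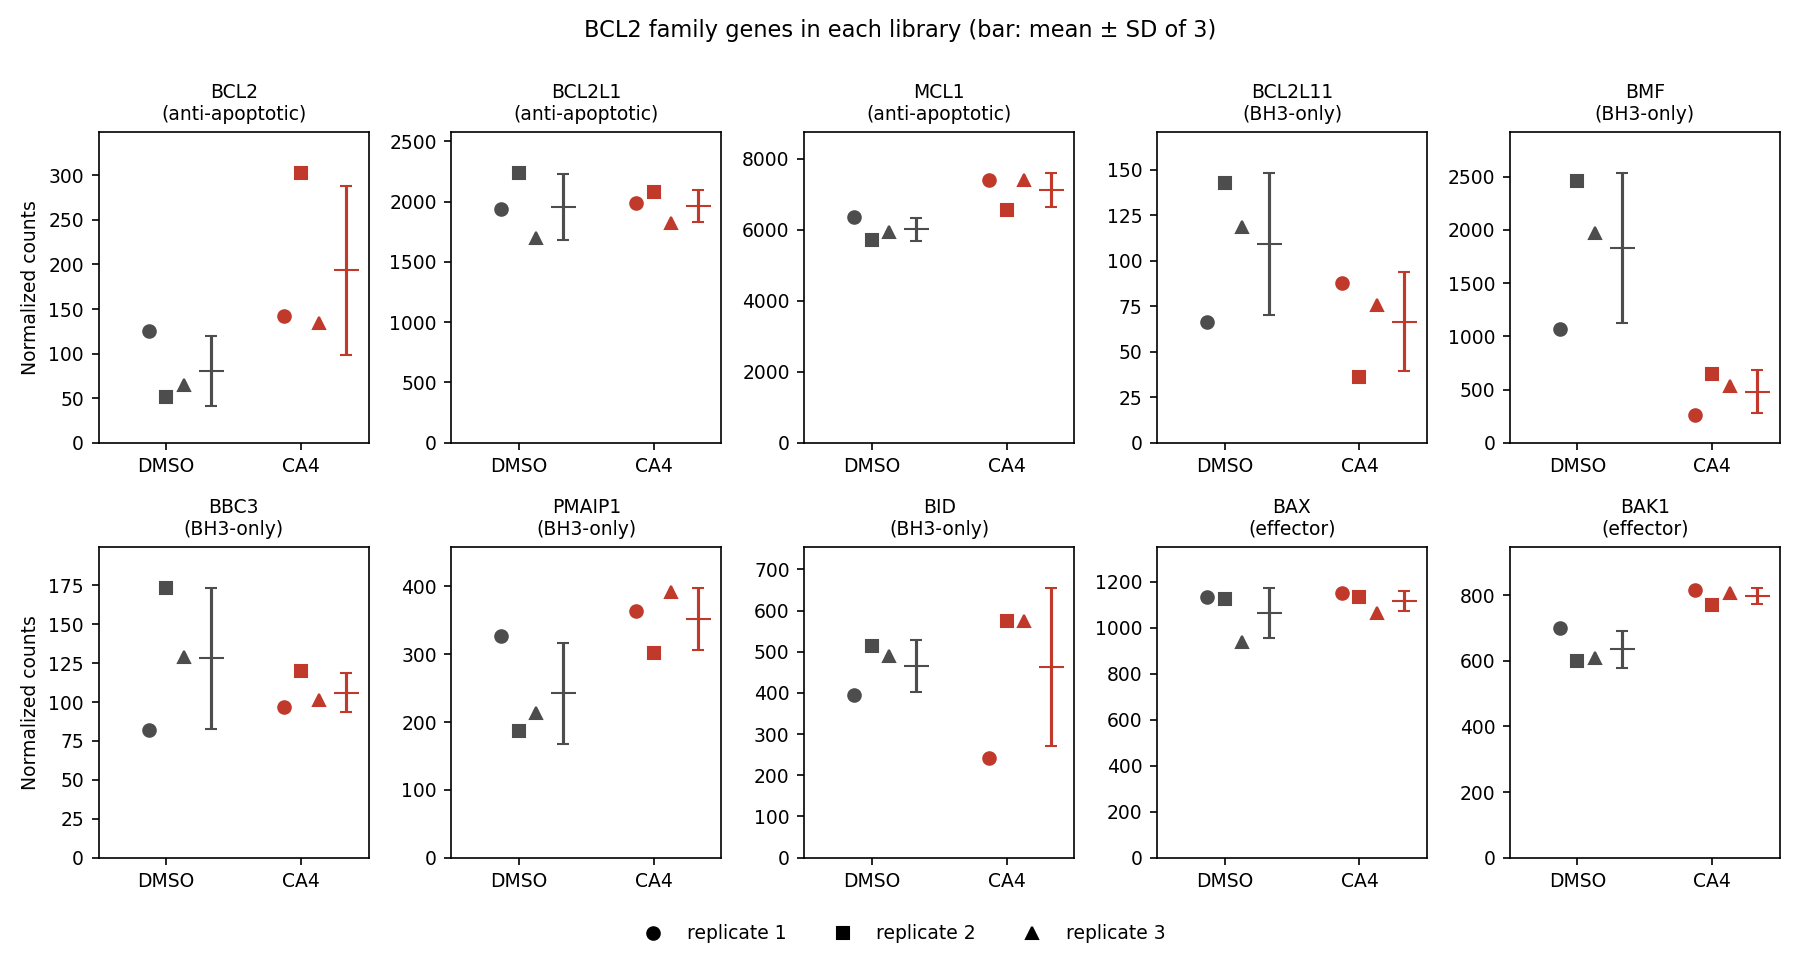
Normalized counts (vertical axis, each starting at 0) of the 10 members in the 3 DMSO libraries (grey) and the 3 CA4 libraries (red), with point shapes for the replicate numbers and the group mean ± SD beside them. BMF lies between 259 and 649 in CA4 and between 1070 and 2459 in DMSO, and BCL2, MCL1 and BAK1 are the members whose CA4 points all lie above DMSO.

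BMF (ENSG00000104081, chr15:40087890-40108892, minus strand) encodes a BH3-only protein that binds and blocks anti-apoptotic members. Replicates 1, 2 and 3 of DMSO had 1070, 2459 and 1967 normalized counts, and those of CA4 had 259, 649 and 533. Every CA4 library was therefore below every DMSO library, and replicate 1 was the lowest of its group in both. The means were 1832 ± 704 for the control group and 480 ± 200 for the treated group (SD, n = 3), so DMSO stood at 3.82 times the level of CA4. The log2 fold change was -1.95 (SE 0.40, 95% interval -2.88 to -1.02) with a limma adjusted p of 0.0392. By fold change BMF was number 29 of the 275 genes that fell. The direction held without each library in turn (-2.29 to -1.56), but the call did not. It was kept without DMSO replicate 1 (limma adjusted p = 0.0203) and without CA4 replicate 2 (0.0483), and lost without CA4 replicate 1 (0.0823), CA4 replicate 3 (0.0954), DMSO replicate 2 (0.137) or DMSO replicate 3 (0.144). The call was also lost without the variance trend (limma adjusted p = 0.0957) and kept with the replicate number as a block (0.000408). Over the 19 alternative fits it held in 14. With replicates 2 and 3 only, a fit added after seeing the data, BMF was at -1.90 and passed (limma adjusted p = 0.00917), again as the 1 member called. In GENCODE 29, 8.46% of the exon bases of BMF also belong to BMF-AS1 on the opposite strand, and the use of strand in counting is not given in the sources used here.

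The tested coding genes next to BMF on chromosome 15 did not pass the test. EIF2AK4 and SRP14, 52299 and 48702 bases away on one side, had log2 differences of 0.05 and -0.21 (limma adjusted p = 0.877 and 0.333). BUB1B, a mitotic checkpoint kinase 52131 bases away on the other side, had -0.52 and INAFM2 0.00 (limma adjusted p = 0.678 and 0.998). The signs of EIF2AK4, BUB1B and INAFM2 turned with a library left out, and for BUB1B the difference ran from -0.98 to 0.21, the latter without CA4 replicate 3. Over the 6 libraries the genes whose log2 values ran most like those of BMF were TEAD2, DMRTA1 and PIK3IP1, with Pearson r of 0.998, 0.997 and 0.996 out of 11688 genes compared. These correlations describe 6 libraries of 2 groups, and 748 genes reached 0.9. TEAD2 averaged 988 normalized counts in DMSO and 527 in CA4, DMRTA1 156 and 75.6, and PIK3IP1 1082 and 344, and all 3 missed the threshold (limma adjusted p = 0.0615, 0.0771 and 0.0565).

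BCL2L11 (ENSG00000153094, chr2:111119378-111168447, plus strand) encodes BIM, which binds all the anti-apoptotic members and can also activate BAX. Replicates 1, 2 and 3 of DMSO had 66.6, 143 and 119 normalized counts, and those of CA4 had 88.0, 35.9 and 75.8. The groups overlapped through DMSO replicate 1, the lowest control. The log2 fold change of -0.74 (SE 0.41, 95% interval -1.69 to 0.22) had a limma adjusted p of 0.337. Its size depended on single libraries, with -0.35 when CA4 replicate 2 was left out and -1.06 when DMSO replicate 1 was (limma adjusted p = 0.609 and 0.162), and -1.30 with replicates 2 and 3 only (0.148). In GENCODE 29, 10.9% of its exon bases lie in MIR4435-2HG, on the opposite strand.

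PMAIP1 (ENSG00000141682, chr18:59899948-59904306, plus strand) encodes NOXA, a BH3-only protein that binds mainly MCL1. Replicates 1, 2 and 3 of DMSO had 327, 187 and 213 normalized counts, and those of CA4 had 364, 302 and 391. DMSO replicate 1 lay above CA4 replicate 2, so the groups overlapped. By limma the difference was 0.57 on the log2 scale (SE 0.22, 95% interval 0.05 to 1.09) and its adjusted p 0.182. Without DMSO replicate 1 it was 0.81 and passed (limma adjusted p = 0.0386), and in the other 5 fits without a library the adjusted p ran from 0.187 to 0.429.

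BBC3 (ENSG00000105327, chr19:47220822-47232766, minus strand) encodes PUMA, known as a target of p53. It had 82.1, 173 and 129 normalized counts in replicates 1, 2 and 3 of DMSO, and in those of CA4 it had 96.6, 120 and 101. All CA4 values lay within the range of the controls, and the log2 fold change was -0.21 (SE 0.28, 95% interval -0.87 to 0.44, limma adjusted p = 0.704), a sign that changed without DMSO replicate 2. BID (ENSG00000015475, chr22:17734138-17774770, minus strand) encodes a BH3-only protein that caspase 8 cuts into its active form. Its DMSO libraries had 394, 514 and 489 normalized counts and its CA4 libraries 243, 576 and 574. Replicate 1 of CA4 was the lowest of the 6 libraries and the other 2 CA4 libraries were the highest. The log2 fold change of BID was -0.10 (SE 0.33, 95% interval -0.86 to 0.66, limma adjusted p = 0.891). Leaving out CA4 replicate 1 turned it to 0.31 (limma adjusted p = 0.359), and replicates 2 and 3 alone gave 0.20 (0.411).

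**Figure D2:**
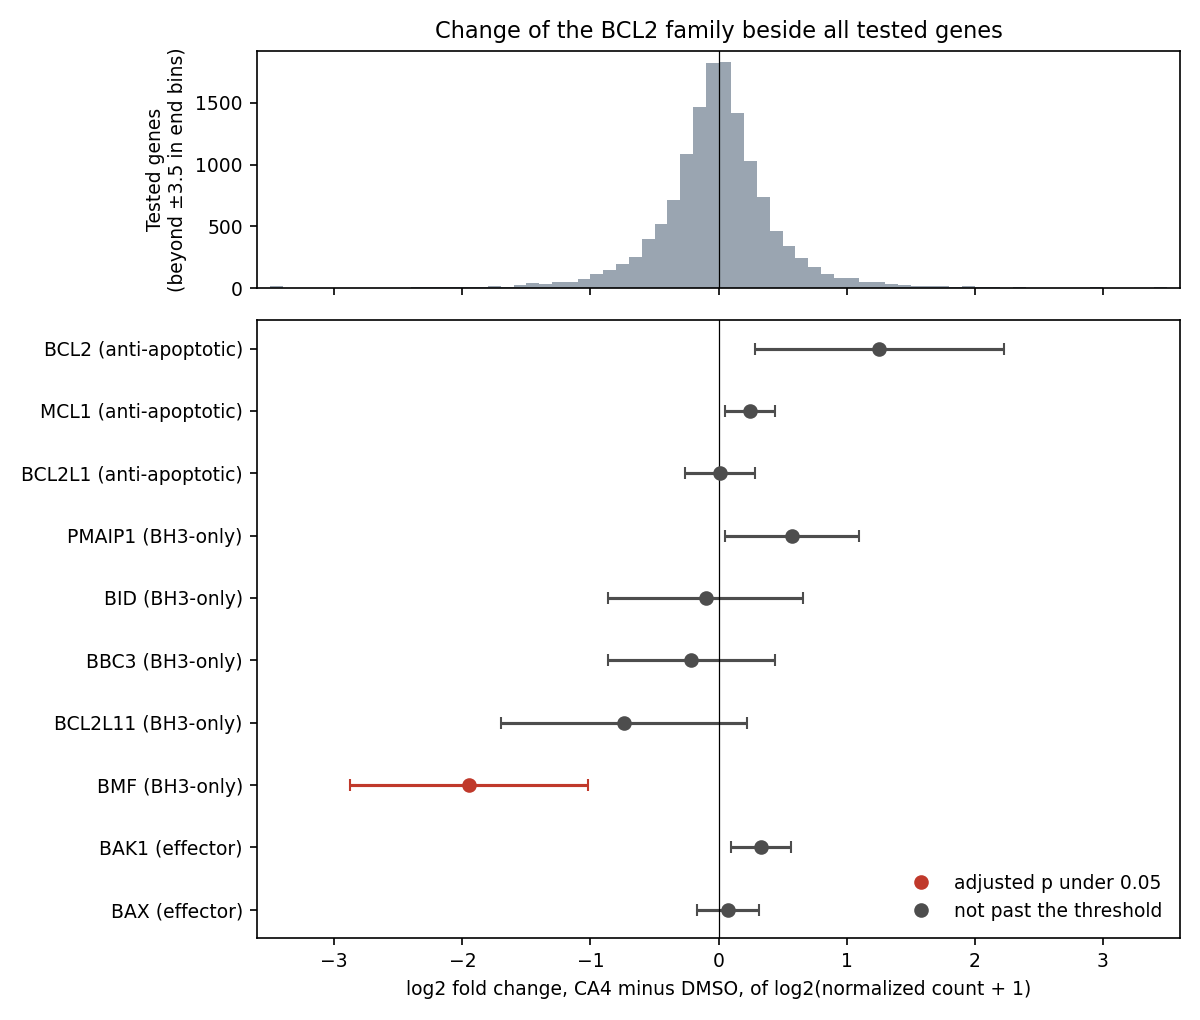
The upper panel counts all 13928 tested genes by log2 fold change (CA4 minus DMSO), with the extremes gathered in the end bins, and the lower panel gives each member's log2 fold change with its 95% interval from limma, red where the adjusted p passed 0.05. BMF at -1.95 is the member past the threshold, and the intervals of BCL2, MCL1, PMAIP1 and BAK1 lie above 0 before adjustment.

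Among the anti-apoptotic genes BCL2 (ENSG00000171791, chr18:63123346-63320128, minus strand) had the largest difference. Replicates 1, 2 and 3 of DMSO had 126, 51.4 and 64.6 normalized counts, and those of CA4 had 142, 303 and 135. The groups did not overlap, but the highest control and the lowest treated library were close, and CA4 replicate 2 was far above the other 5 libraries. The log2 fold change was 1.25 (SE 0.42, 95% interval 0.28 to 2.23) with a limma adjusted p of 0.129. Leaving out CA4 replicate 2 gave 0.88 (limma adjusted p = 0.253), and leaving out DMSO replicate 1 gave 1.62 (0.0527).

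MCL1 (ENSG00000143384, chr1:150574551-150579738, minus strand) encodes a short-lived protector and had the most reads of the 10 members. Replicates 1, 2 and 3 of DMSO had 6375, 5717 and 5955 normalized counts, and those of CA4 had 7398, 6557 and 7413. All CA4 libraries lay above all DMSO libraries by a small margin. By limma the difference was 0.24 on the log2 scale (SE 0.08, 95% interval 0.05 to 0.44) and its adjusted p 0.139. With the replicate number as a block MCL1 passed (limma adjusted p = 0.0308). The difference was 0.14 when each library was scaled to the same total. That scaling moved the median of all tested genes by -0.10.

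BCL2L1 (ENSG00000171552, chr20:31664452-31723989, minus strand) encodes BCL-XL. Its DMSO libraries had 1936, 2240 and 1697 normalized counts and its CA4 libraries 1990, 2080 and 1825, in the order of replicates 1, 2 and 3, all within the range of the controls. By limma the difference was 0.01 on the log2 scale (SE 0.12, 95% interval -0.26 to 0.28) and its adjusted p 0.967. The sign changed under quantile normalization, scaling to the same total, without DMSO replicate 3 or CA4 replicate 2, and with replicates 2 and 3 only. ABALON, a gene on the opposite strand, covers 43.0% of the exon bases of BCL2L1 in GENCODE 29.

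The effector BAK1 (ENSG00000030110, chr6:33572547-33580293, minus strand) had 700, 598 and 608 normalized counts in replicates 1, 2 and 3 of DMSO, and 817, 769 and 807 in those of CA4. The groups did not overlap, and the CA4 libraries were close to one another. The log2 fold change was 0.33 (SE 0.10, 95% interval 0.09 to 0.57), and limma's adjusted p of 0.105 was above the threshold. With the replicate number as a block BAK1 passed (limma adjusted p = 0.0447). BAK1P1, a processed pseudogene, shares 12.3% of the 50-base words of BAK1 and averaged 0.881 normalized counts. The other effector, BAX (ENSG00000087088, chr19:48954815-48961798, plus strand), had 1133, 1124 and 937 normalized counts in DMSO and 1150, 1132 and 1067 in CA4. Its groups overlapped and its log2 fold change was 0.07 (SE 0.10, 95% interval -0.17 to 0.31, limma adjusted p = 0.725), a sign that changed without DMSO replicate 3 and when libraries were scaled to the same total.

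Spread between replicates differed among the members. In DMSO the coefficient of variation, the SD as a share of the mean, was 49.1% for BCL2, 38.4% for BMF, 35.7% for BCL2L11, 35.5% for BBC3 and 30.8% for PMAIP1, and from 5.54% to 13.9% for the other 5 members. In CA4 it was 49.2% for BCL2, 41.7% for BMF, 41.3% for BID and 40.9% for BCL2L11, and at most 13.0% for the rest. MCL1, BAX, BAK1 and BCL2L1 were thus the even members in both groups, with the shortest intervals of the fold change, and BCL2, BMF and BCL2L11 the uneven ones.

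Levels of different genes can be compared only per length. Per kilobase of merged exon in GENCODE 29, MCL1 stood at 1376 ± 76.2 normalized counts for DMSO and 1630 ± 112 with CA4 (SD, n = 3), the highest member in both groups on this scale. BCL2L1 followed with 591 ± 82.1 in DMSO, and BAX with 412 ± 42.7, BMF with 336 ± 129 and BAK1 with 287 ± 25.4. BMF lay within its spread of both BAX and BAK1. PMAIP1 with 108 ± 33.4 and BID with 105 ± 14.3 could not be ordered, and BBC3 (40.3 ± 14.3), BCL2L11 (16.4 ± 5.86) and BCL2 (6.84 ± 3.36) were the lowest. In CA4 BCL2L1 (593 ± 39.1), BAX (432 ± 17.0), BAK1 (360 ± 11.5) and PMAIP1 (158 ± 20.5) followed MCL1. BMF, number 4 in DMSO, stood at 88.1 ± 36.7 in CA4 as number 7, within the spread of BID (104 ± 43.1). BBC3 (33.3 ± 3.89), BCL2 (16.4 ± 8.08) and BCL2L11 (9.995 ± 4.09) were again the lowest, the last 2 within their spread of each other. The length used matters most for BMF and BAX, whose coding transcripts in the GENCODE basic set have median lengths of 735 and 613.5 bases against 5447 and 2587 bases of merged exon. With the median transcript length BMF was number 1 in DMSO (2492 ± 958 normalized counts per kilobase) and number 4 in CA4 (653 ± 272). On that scale BAX was number 2 in both groups (1735 ± 180 and 1819.5 ± 71.6), MCL1 moved to number 3 in DMSO (1659 ± 91.9) but stayed number 1 in CA4 (1964 ± 135), and BCL2L1 was number 4 and number 3. In DMSO these top 3 lay within the spread of BMF, and BCL2L11 and BCL2 stayed the lowest members in both groups.

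A ratio of 2 genes within a library does not depend on how libraries were scaled, and each pro-apoptotic member was set over each protector in this way. BMF over MCL1, as log2 of the ratio of normalized counts, was -2.57, -1.22 and -1.60 in replicates 1, 2 and 3 of DMSO and -4.84, -3.34 and -3.80 in those of CA4. BMF over BCL2L1 was -0.86, 0.13 and 0.21 in DMSO and -2.94, -1.68 and -1.78 in CA4. BMF over BCL2 was 3.09, 5.58 and 4.93 in DMSO and 0.87, 1.098 and 1.98 in CA4. All CA4 libraries were thus below all DMSO libraries in each of the 3 ratios of BMF.

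Of the 21 ratios, 4 were lower without overlap, those of BMF and that of BAX over BCL2, and 1 was higher, BAK1 over BCL2L1. PMAIP1 over MCL1, the protector that NOXA binds, was -4.28, -4.93 and -4.81 in DMSO and -4.34, -4.44 and -4.24 in CA4, and its groups overlapped through DMSO replicate 1. BCL2L11 over BCL2 was -0.91, 1.48 and 0.88 in DMSO and -0.69, -3.08 and -0.83 in CA4, where DMSO replicate 1 again lay among the CA4 libraries. For scale, 27.7% of single tested genes had groups that do not overlap, and no such share was computed for ratios of other genes. The ratios of BMF largely repeat the fall of BMF itself. The ratios share genes and are given without a test.

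**Figure D3:**
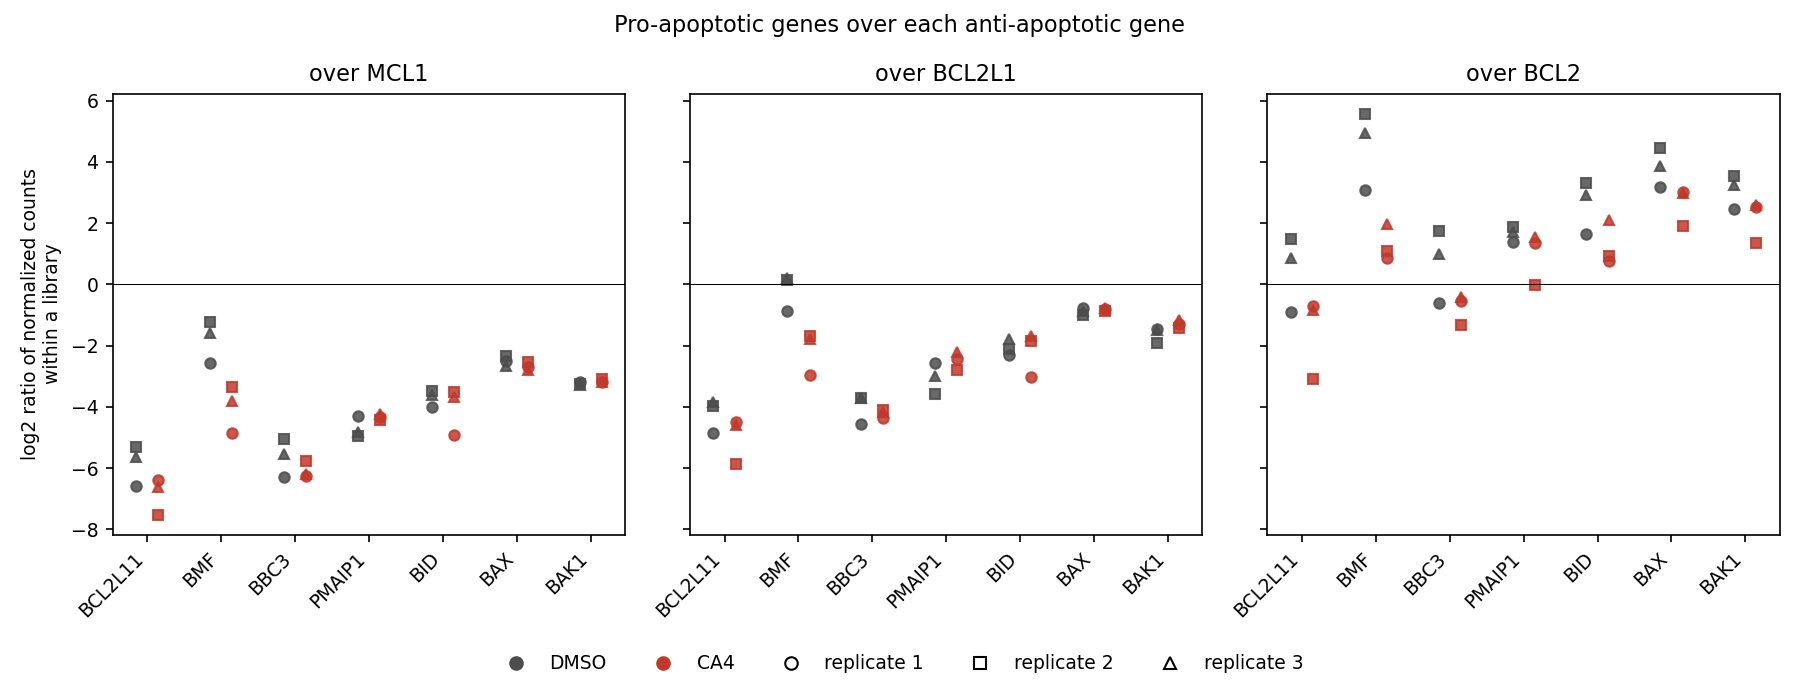
Each point is the log2 ratio of normalized counts of a pro-apoptotic member over MCL1, BCL2L1 or BCL2 in 1 library, grey for DMSO and red for CA4, with shapes for the replicate numbers. The BMF points of CA4 lie below those of DMSO in all 3 panels, with mean differences of -2.19, -1.96 and -3.22.

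Around these members, 73 other genes of apoptosis in 7 lists were measured in the same fit, and 63 of them were abundant enough to be tested. In CA4, 6 rose and 1 fell, 11.1% of those tested against 4.94% of all genes, and the median log2 fold change of the 63 genes was 0.01. The lists were chosen with earlier results of these data known.

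Among 6 inhibitors of apoptosis 2 rose. BIRC3 encodes cIAP2, a ubiquitin ligase of the tumour necrosis factor receptor complex. Replicates 1, 2 and 3 of DMSO had 135, 85.1 and 54.1 normalized counts, and those of CA4 had 381, 227 and 263, a difference of 1.72 on the log2 scale (limma, SE 0.35 and adjusted p 0.0369). CFLAR encodes cFLIP, which keeps caspase 8 from being activated at death receptors. It had 1791, 1382 and 1567 in DMSO and 3414, 2905 and 3241 in CA4, a difference of 1.02 on the log2 scale (limma, SE 0.12 and adjusted p 0.0084), and its call held whichever library was left out (highest limma adjusted p = 0.0485). The list's median was 0.30.

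Among 13 other BCL2 proteins, of which 8 were tested, 1 rose and 1 fell. BOK, a relative of BAX and BAK1, rose from a mean of 1837 ± 33.1 in DMSO to 2536 ± 172 normalized counts in CA4 (SD, n = 3), a difference of 0.46 on the log2 scale (limma, SE 0.08 and adjusted p 0.0239). BCL2L13, a mitochondrial protein whose gene ends 3283 bases from BID, fell from a mean of 2143 ± 268 in DMSO to 1278 ± 152 in CA4 (SD, n = 3), a difference of -0.74 on the log2 scale (limma, SE 0.13 and adjusted p 0.0222). The list's median was -0.14. BCL2A1, an anti-apoptotic member below the filter and named after its values were seen, had 1, 0 and 0 reads in replicates 1, 2 and 3 of DMSO, and 7, 5 and 6 in those of CA4 (exact permutation test, two-sided, p = 0.1, which is the lowest value 3 against 3 libraries can give).

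The death receptor list had 11 of 13 genes tested and 1 that rose. TNFRSF10B, the TRAIL receptor DR5, went from a mean of 3185 ± 339 in DMSO to 4511 ± 399 normalized counts in CA4 (SD, n = 3), a difference of 0.50 on the log2 scale (limma, SE 0.11 and adjusted p 0.0436). Of 12 transcription factors that act on BH3-only genes, 11 were tested and 2 rose. ATF3, a stress-induced factor, went from a mean of 23.2 ± 9.82 in DMSO to 77.3 ± 15.6 in CA4 (SD, n = 3), a difference of 1.77 on the log2 scale (limma, SE 0.39 and adjusted p 0.0471). MYC, which can promote both growth and apoptosis, went from a mean of 856 ± 212 in DMSO to 1537 ± 254 in CA4 (SD, n = 3), a difference of 0.86 on the log2 scale (limma, SE 0.19 and adjusted p 0.0487). Most of these calls were lost with a library left out. With 1 library left out, BIRC3, BOK, TNFRSF10B, ATF3 and MYC each passed only when it was DMSO replicate 1, with limma adjusted p-values of 0.0165, 0.0328, 0.0332, 0.0364 and 0.0172. With another library left out these p-values reached 0.121, 0.101, 0.139, 0.138 and 0.161. BCL2L13 passed without DMSO replicate 1 or CA4 replicate 2 (limma adjusted p = 0.0149 and 0.0346) and otherwise reached 0.100. The calls of TNFRSF10B, ATF3 and MYC also depended on the processing. TNFRSF10B lost its call under quantile normalization (limma adjusted p = 0.0772), at the same total (0.0793), with no filter on low values (0.0504) and without the variance trend (0.1075). MYC lost it under quantile normalization (limma adjusted p = 0.0572), at the same total (0.0676), with no filter (0.0514), with a pseudocount of 0.1 (0.0501) and without the trend (0.1079). ATF3 lost it with no filter (limma adjusted p = 0.0634), with a minimum mean of 50 (0.0516) and without the trend (0.0807). BOK, BCL2L13 and BIRC3 lost theirs without the trend (limma adjusted p = 0.0794, 0.0740 and 0.0859). With replicates 2 and 3 only, TNFRSF10B and ATF3 lost their calls (limma adjusted p = 0.0767 and 0.0698), and BOK, BCL2L13, BIRC3, CFLAR and MYC kept theirs. On the recovered reads edgeR called neither ATF3 nor MYC, and DESeq2 called both.

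None of the 14 tested genes of the apoptosome, caspase and mitochondrial list passed in limma, where 3 had an unadjusted p under 0.05, against 23.0% of all tested genes. CASP6, an executioner caspase, was nearest, with 222, 346 and 273 normalized counts in replicates 1, 2 and 3 of DMSO, 117, 176 and 95.9 in those of CA4, and -1.13 on the log2 scale (SE 0.26, limma adjusted p = 0.0541). It passed without DMSO replicate 1 (limma adjusted p = 0.0446) or CA4 replicate 2 (0.0407), at the same total (0.0433), with a minimum mean of 50 (0.0482) and with the replicate number as a block (0.00752). CYCS, which encodes cytochrome c, had 0.47 on that scale (SE 0.13, limma adjusted p = 0.0863), and without DMSO replicate 1 it was 0.62 and passed (0.0167). CYCS also passed with replicates 2 and 3 only (0.58, limma adjusted p = 0.0417) and with the replicate number as a block (0.0152). The 5 genes of the motor complexes that hold BIM and BMF did not pass either. An unadjusted p under 0.05 was found for 23.0% of all tested genes and for 1 of these 5. That was DYNC1I2, a dynein intermediate chain, with a difference of -0.24 on the log2 scale (limma, SE 0.07 and adjusted p 0.0991). At the same total it was -0.34 and passed (limma adjusted p = 0.0477), and it also passed with the replicate number as a block (0.0405). DYNLL1 had the next smallest p, and DYNLL2 was named outside the rule, with its values seen, as the light chain that binds BMF. DYNLL1 and DYNLL2 had log2 differences of -0.09 (SE 0.12) and 0.00 (SE 0.09), with 95% intervals of -0.37 to 0.20 and -0.20 to 0.20. Of the 9 genes of MCL1 turnover, 8 were tested and none passed or had an unadjusted p under 0.05. GSK3A and MARCHF5 had the smallest p among them, with log2 differences of 0.18 and -0.15 (limma adjusted p = 0.269 and 0.308). Over these 3 lists edgeR called 0 genes, and DESeq2 called CASP6 and DYNC1I2 lower and CYCS higher.

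**Figure D4:**
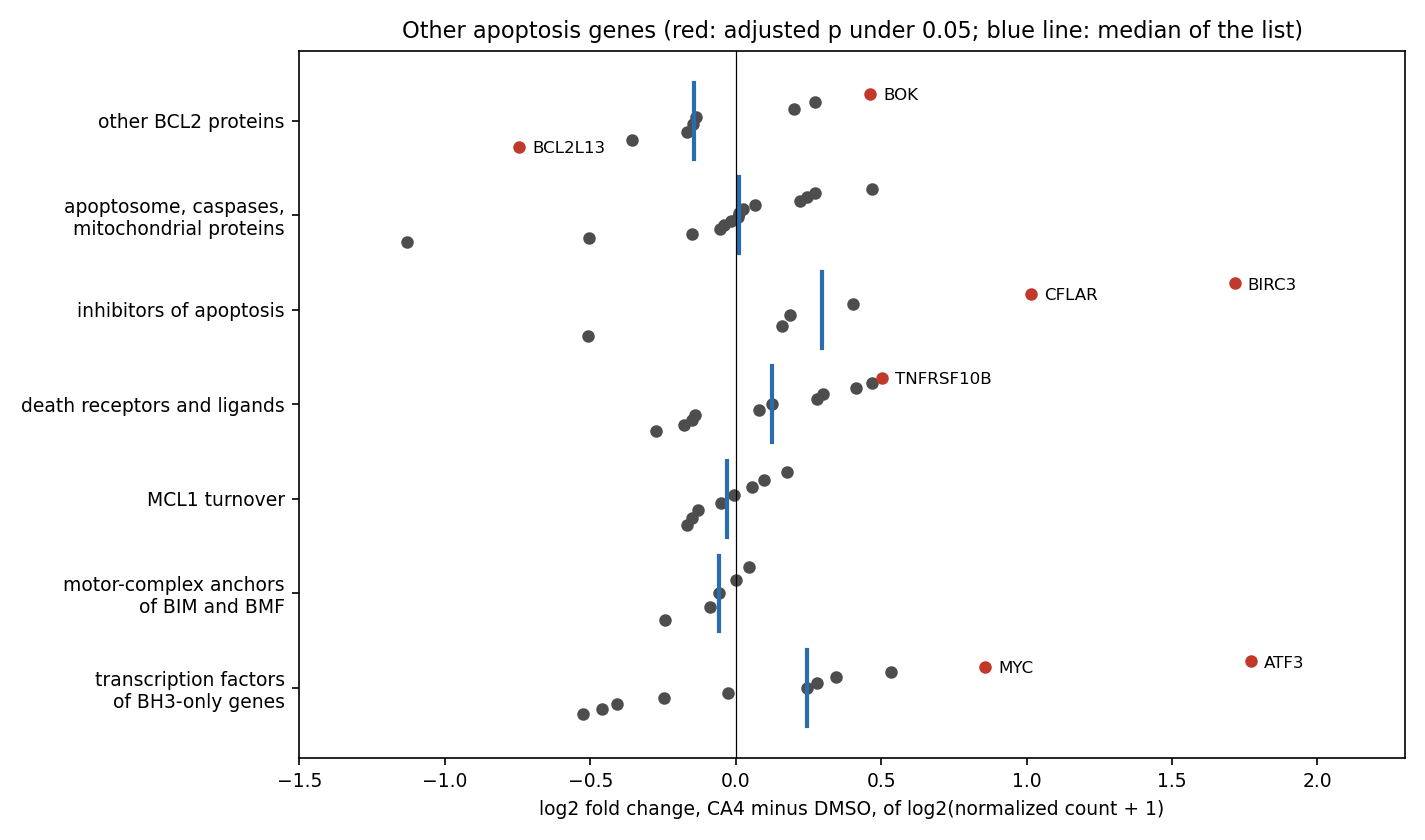
Each point is a tested gene of 1 of the 7 apoptosis lists, placed by its log2 fold change (CA4 minus DMSO), red and named where the adjusted p passed 0.05, with a blue line at the median of the list. BIRC3, ATF3, CFLAR, MYC, TNFRSF10B and BOK lie to the right and BCL2L13 to the left.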

How the data were processed

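The table gives 1 column per library and 1 row per Ensembl ID. Its values are a signal, normalized counts, for which the authors divided the reads of each gene by 1 factor per library, as the deposited values show. Per the submitters' processing notes, Trim Galore 0.6.6, FastQC 0.12.1, STAR 2.7.9a, Salmon 1.8.0 and DESeq2 1.44.0 were used with GRCh38. Their settings, the annotation and the use of strand are not given in the sources used here. In every column 100% of the values were whole multiples of its smallest value (tolerance 0.01), which gave back whole reads.

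A supplied name table gave symbols for 29973 rows, all 10 members included, and GENCODE 29 places, lengths and sequences. Genes averaging 10 or more normalized counts over the 6 libraries were fitted as log2(value + 1) with limma 3.58.1 in R 4.3.3 (treatment only, trended moderation), and p-values were adjusted over all tested genes by the Benjamini-Hochberg method. The 6 fits without 1 library each, a fit of replicates 2 and 3 only, edgeR 4.0.16 and DESeq2 1.42.0 on the whole reads, and other scalings, filters and pseudocounts were alternatives. The code was checked on simulated data. Named are all members, list genes past the threshold (otherwise the 2 with the smallest p), and the 3 genes most like BMF. Outside this rule, BCL2A1, DYNLL2, marker genes and the neighbours of BMF were named with their values known. Members and lists were chosen with earlier results of these data known. A marker and a motif sequence are not reported here.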

Additional observations from a re-analysis of the deposited data

How the results depend on the processing

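Against 1 lower and 0 higher members, and 6 higher and 1 lower genes among the other apoptosis lists, some counts changed with the processing, and the cause was not tested. Without the variance trend there were 0 lower members (BMF, limma adjusted p = 0.0957), and 1 higher and 0 lower other genes. DESeq2 on the recovered reads gave 1 higher member (BCL2, adjusted p = 0.0358) and 3 lower other genes, scaling to the same total gave 3 lower other genes, and a minimum mean of 50 gave 2. The 6 higher other genes became 4 at the same total, under quantile normalization, with no filter on low values and with edgeR. With each library left out in turn, the members ran from 0 to 1 higher and from 0 to 1 lower, and the other genes from 1 to 8 higher and from 0 to 2 lower. Over all tested genes 688 calls became 1613 with DESeq2, 103 without the variance trend and 81 to 994 without 1 library. The 994 came without DMSO replicate 1 and the 81 without DMSO replicate 3.

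Signs turned for small differences. The log2 fold change of BCL2L1 was -0.0445 under quantile normalization, -0.0889 at the same total and -0.0861 to 0.1142 without 1 library. That of BAX was -0.0283 at the same total and -0.0162 to 0.1204 without 1 library. Without 1 library BBC3 ran from -0.4974 to 0.0355, BID from -0.3093 to 0.3122 and DYNLL1 from -0.1855 to 0.0411. With replicates 2 and 3 only, chosen after seeing the data, BCL2L1 was -0.0011, BID 0.1966 and DYNLL1 0.01, and 414 genes were called in all. The counts of members and of other genes called were the same as with all 6 libraries, but the other genes were not all the same. TNFRSF10B and ATF3 lost their calls, and CYCS was among those that gained one. Of 437 values over 23 single genes and 19 alternatives, 355 kept direction and call, 53 lost the call, 17 gained one and 12 changed sign. At 32 to 153 reads a library, BCL2L11 is the member with the lowest mean, and counting error weighs most there.

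With the replicate number as a block (a replicate block), 2 members were higher (MCL1 and BAK1, limma adjusted p = 0.0308 and 0.0447) and BMF was lower (0.000408). Among the other apoptosis genes 12 were higher and 3 lower, and 2397 of all tested genes (17.2%) were called. The labels do not say what a number marks, and for that reason the numbers were not taken as pairs. Deviations from the group means correlated at 0.202, 0.159 and 0.0588 between same-numbered libraries. Between unlike numbers the correlations ran from -0.214 to -0.00126, except 0.0741 for CA4 replicate 3 with DMSO replicate 2. Whether the numbers mark pairs was not tested.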
